A study of Homo sapiens with 4 samples.

Results

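C2H2 zinc finger genes encode the largest family of human transcription factors, and 35 such genes among the 1232 in the deposited table of an experiment with PHF19 are described here. The members were all rows whose symbol was ZNF and a number, or whose deposited factor family contained C2H2, without the KLF and EGR genes. The 5 listed KLF and EGR genes are also C2H2 by the deposited family, and all 5 were lower in PHF19_OE cells. Of the 35, 29 were ZNF genes and 6 had other names (BCL11A, PRDM15, PLAG1, GLIS1, ZKSCAN2 and IKZF3). ZNF826P is annotated as a pseudogene and the other 34 as protein-coding, and 19 members lay on chromosome 19. The RNA came from AMO1, an established human multiple myeloma line. PHF19_OE cells had been transduced with a lentivirus to overexpress PHF19, and EV cells carried the empty lentiviral vector. Each group had 2 libraries. The labels do not say whether the 2 were grown separately, so every p-value rests on a spread between libraries that could be technical. The labels name no clone, promoter or time after transduction.

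A C2H2 finger is a short protein loop that holds a zinc ion between cysteines and histidines and reads a few bases of DNA, and a gene of this family usually encodes a row of them. Many members carry a KRAB domain at the other end, which recruits the corepressor TRIM28 (KAP1) and, through it, the histone methyltransferase SETDB1, and these proteins are best known for silencing transposable elements. KRAB genes arose by tandem duplication and lie in long clusters, above all on chromosome 19. Other C2H2 proteins, such as the Ikaros family, BCL11A and ZNF521, steer blood cell development. PHF19 is a Polycomb-like partner of Polycomb repressive complex PRC2, and Polycomb-like proteins bind unmethylated DNA rich in CG.

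The table is restricted to genes that reached p under 0.05 by the authors' own test, and the level of any gene outside it is not analysed here. The 2 PHF19_OE libraries held 23835805 and 28156519 reads, and the 2 EV libraries held 35258920 and 29461022. Values below are the deposited normalized counts, which are read counts divided by the authors' factor for each library, unless FPKM (a level scaled for gene length and library size) is named. In bulk RNA, fewer cells of a kind and less RNA per cell cannot be told apart. PHF19 itself had 9670 and 8777 normalized counts in PHF19_OE cells, against 1842 and 4506 in EV cells, so EV replicate 2 stood nearer to the overexpressing libraries. The authors' deposited table has 1.54 as its log2 fold change and 0.0897 as adjusted p, so PHF19 did not pass the adjusted threshold of 0.05 used below.

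As a group the 35 members, which leave out the KLF and EGR genes, lay on the higher side in PHF19_OE cells. In 23 of the 35 members (65.7%) the mean was higher in PHF19_OE cells than in EV cells, and in 12 it was lower. Among all listed genes 36.4% were higher. The higher members were mostly chromosome 19 ZNF genes: 16 of the 19 there (84.2%) were higher, against 7 of 16 (43.8%) on other chromosomes. Among the 61 other listed genes of chromosome 19, 19 (31.1%) were higher. None of the 5 listed KLF and EGR genes, which are C2H2 genes left out by the rule, was higher. Among genes of other factor families 13 of 49 were higher. The median difference in log2(normalized count + 1) was 1.52 for the 35 members, 1.65 on chromosome 19 and -0.97 elsewhere, against -1.17 for all listed genes. These are counts and medians with no test, since the members were taken from genes that had already passed p under 0.05.

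**Figure D1:**
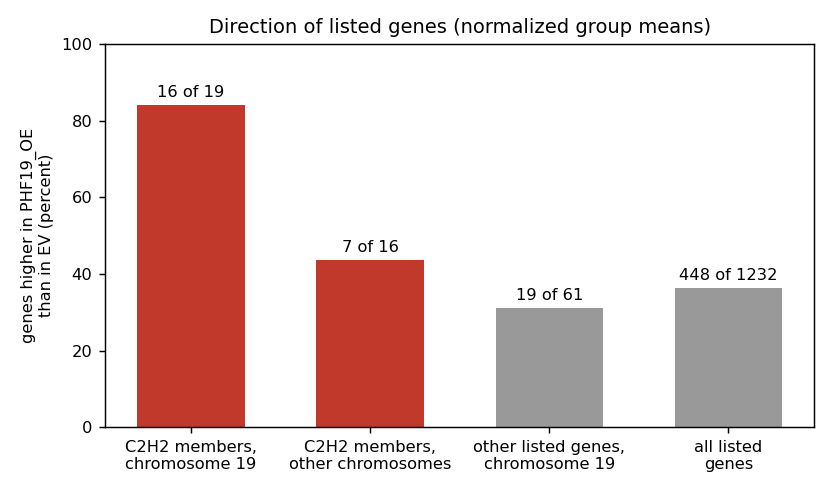
Share of genes, in percent, with a higher mean normalized count in PHF19_OE than in EV cells, by set of listed genes. The bar of chromosome 19 C2H2 members stands at 84.2%, that of the C2H2 members elsewhere at 43.8%, and that of all listed genes at 36.4%.

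By the adjusted p in the authors' deposited table (threshold 0.05), 5 members rose, ZNF43, ZNF257, ZNF613, ZNF506 and BCL11A, and ZNF160 fell. The same threshold called 23.8% of the listed genes and 1.74% of the 16881 genes behind the authors' adjustment (0.663% higher and 1.07% lower), so the members' share of 17.1% (6 of 35) was no larger than that of the listed genes. In 33 of the 35 members, all but GLIS1 and ZNF488, the PHF19_OE and EV values did not overlap, which also held for 90.5% of all listed genes. The other 29 members did not pass the adjusted threshold, and their values are given as differences only. Refits of the deposited counts gave other calls. With edgeR's quasi-likelihood test on the deposited counts and adjustment over the same 16881 genes, 0 of 31 fitted members passed (0% of genes), 13 had an unadjusted p under 0.05 (49% of fitted genes), and DESeq2 with that adjustment also called 0 members (0.794% of genes) with 15 at an unadjusted p under 0.05 (51.6%). Adjusted over the listed genes alone, edgeR called 1 member (14% of genes), 3 with TMM factors (18.5%), 0 with no filter on low counts (4.46%, and 14 at an unadjusted p under 0.05, 47.2%) and 5 with the replicate number as a block (27.9%, or 0 with 0.646% over the 16881 genes), and DESeq2 called 7 (29.5%). These fits use the libraries that selected the genes. They covered listed genes only (1066 in edgeR with its filter, 1232 in DESeq2), so the unlisted part of the 16881 genes could not be called. Their estimates of spread also came from genes selected at p under 0.05. The counts are therefore not like for like with the authors' calls.

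Among the 6 called genes, ZNF43, ZNF257 and ZNF613 had few reads in EV cells. ZNF43 (ENSG00000198521, chromosome 19, 21804949 to 21852125, minus strand, hg38), a KRAB zinc finger gene, had 74.5 and 88.0 normalized counts in PHF19_OE cells, against 7.13 and 0 in EV cells. Its mean was 22.8-fold higher, and the authors' deposited table has 4.47 as its log2 fold change with 0.0137 as adjusted p. Against EV replicate 1 alone the ratio was 11.4, and against EV replicate 2, which had no read, it was at least 27.7-fold (floor of 3 counts). So the direction held against each EV library, while the size rests on very few EV reads. Its neighbour ZNF257 (ENSG00000197134, 22052452 to 22091480, plus strand) had 124 and 142 normalized counts in PHF19_OE cells and 10.3 and 26.4 in EV cells. The 7.25-fold rise came with an adjusted p of 0.0156 in the authors' deposited table, and against the single EV libraries the ratios were 12.9 (replicate 1) and 5.04 (replicate 2). Both PHF19_OE libraries lay well above both EV libraries. ZNF613 (ENSG00000176024, chromosome 19, 51927147 to 51948759, plus strand) had 78.1 and 48.1 normalized counts in PHF19_OE cells, against 0 and 4.89 in EV cells. Its ratio of means was 25.8 with an adjusted p of 0.0236 in the authors' deposited table, at least 26.6-fold against EV replicate 1 and 12.9-fold against EV replicate 2.

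ZNF506 and BCL11A had more reads in EV cells than ZNF43, ZNF257 and ZNF613. Scaled for gene length, EV levels were low here too. The EV means were 0.233 FPKM for ZNF506 and 0.110 for BCL11A, against 0.128 for ZNF257. ZNF506 (ENSG00000081665, chromosome 19, 19785839 to 19821751, minus strand) had 245 and 198 normalized counts in PHF19_OE cells, against 64.2 and 46.9 in EV cells. That is a 3.98-fold rise (adjusted p of 0.0341 in the authors' deposited table), and each pair of libraries was close together. BCL11A (ENSG00000119866, chromosome 2, 60450520 to 60555154, minus strand), a repressor of fetal globin genes that early B cells need, had 428 and 399 normalized counts in PHF19_OE cells, against 30.1 and 130 in EV cells. The EV libraries differed from each other more than the PHF19_OE libraries did: the mean rose 5.16-fold (adjusted p of 0.0391 in the authors' deposited table), 13.7-fold against EV replicate 1 and 3.18-fold against EV replicate 2. ZNF160 (ENSG00000170949, chromosome 19, 53066606 to 53103436, minus strand), a KRAB gene reported to repress TLR4 in intestinal epithelial cells, had no read in either PHF19_OE library and 55.4 and 9.78 normalized counts in EV cells. It was at least 19.7-fold lower in PHF19_OE cells (floor of 3 counts over the group), with an adjusted p of 0.0372 in the authors' deposited table. Against EV replicate 1 alone the bound was 33.4-fold and against EV replicate 2 alone 5.90-fold. It was the single called member that fell, and it lay in a stretch where the other listed members were higher. Floors and intervals cover counting error only.

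**Figure D2:**
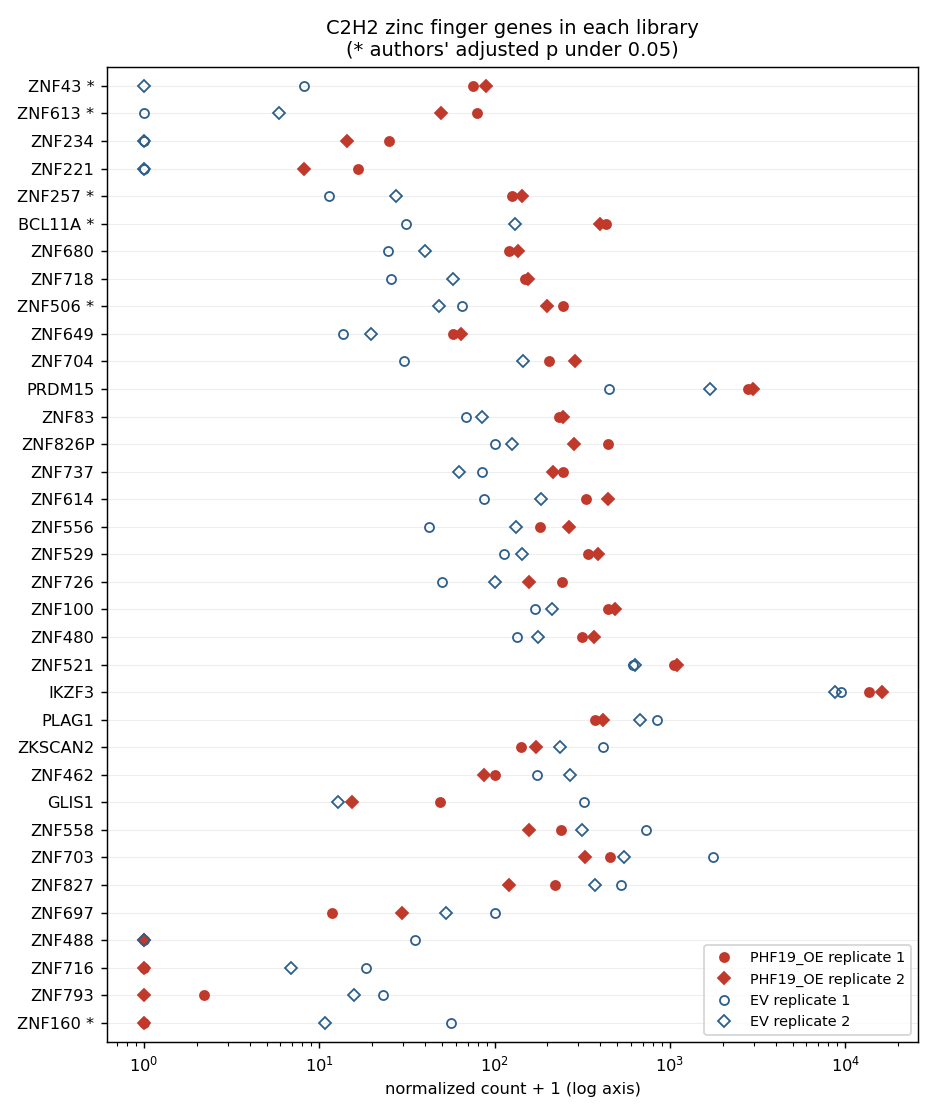
Deposited normalized count plus 1 (log axis) of each of the 35 C2H2 members in the 2 PHF19_OE and the 2 EV libraries as filled red and open blue symbols. ZNF43 had 74.5 and 88.0 in PHF19_OE and 7.13 and 0 in EV, and in 33 of the 35 genes the groups do not overlap.

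RefSeq start windows (GRCh38.p14, 250 bases before to 50 after the start) were matched by symbol for 21 of the 35 members. The windows of ZNF613, BCL11A and ZNF160, each read 5′ to 3′ on its gene's strand, are shown to set called genes that rose beside the one that fell. Capitals mark CG dinucleotides. They lie at chr19:51927222-51927521 (ZNF613, plus strand), chr2:60553875-60554174 (BCL11A, minus strand) and chr19:53103373-53103672 (ZNF160, minus strand).
ZNF613: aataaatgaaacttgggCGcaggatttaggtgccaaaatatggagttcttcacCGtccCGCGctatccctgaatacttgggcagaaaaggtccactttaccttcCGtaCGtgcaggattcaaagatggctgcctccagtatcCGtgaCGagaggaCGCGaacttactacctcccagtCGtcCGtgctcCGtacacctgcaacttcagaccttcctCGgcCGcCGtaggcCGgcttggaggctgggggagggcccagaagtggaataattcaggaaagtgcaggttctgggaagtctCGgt
BCL11A: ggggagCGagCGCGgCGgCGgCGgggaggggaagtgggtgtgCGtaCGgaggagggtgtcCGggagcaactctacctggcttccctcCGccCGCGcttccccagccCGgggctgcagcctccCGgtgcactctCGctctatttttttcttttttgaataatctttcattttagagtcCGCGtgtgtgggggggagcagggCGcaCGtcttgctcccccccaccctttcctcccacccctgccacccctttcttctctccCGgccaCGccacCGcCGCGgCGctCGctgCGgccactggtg
ZNF160: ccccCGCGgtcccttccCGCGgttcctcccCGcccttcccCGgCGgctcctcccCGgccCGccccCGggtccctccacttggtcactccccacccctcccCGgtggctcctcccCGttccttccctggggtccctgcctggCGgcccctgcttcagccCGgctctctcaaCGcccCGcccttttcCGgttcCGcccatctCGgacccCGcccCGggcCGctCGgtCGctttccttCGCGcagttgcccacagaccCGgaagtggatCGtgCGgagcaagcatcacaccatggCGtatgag

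These 3 windows hold 18 CG in ZNF613, 27 in BCL11A and 30 in ZNF160, so the gene with no read in PHF19_OE cells had the most. The windows of BCL11A, ZNF613, ZNF43, ZNF614 and ZNF718 lie wholly inside the annotated genes. Over all matched windows the 15 higher members had a median of 16 CG (0 to 49) and the 6 lower members a median of 26 (7 to 44). The median was 22 both in other listed genes and in unlisted ZNF genes, and 13 over all 27305 genes of the table. At least 10 CG were found in 17 of 21 members (81.0%), in 90.2% of unlisted ZNF genes and in 55.9% of all genes. The higher members' median was thus below that of unlisted ZNF genes and the lower members' above it, over few windows and with no test. Unlisted ZNF genes of chromosome 19 had a median of 20. Of the 15 higher windows, 6 belong to the set of like windows described below and are not separate observations. The extremes include ZNF718, with 0 CG in a window inside the gene, and GLIS1, with 44 CG and a window outside the annotated gene. The window of ZNF697 also lies outside its annotated gene.

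**Figure D3:**
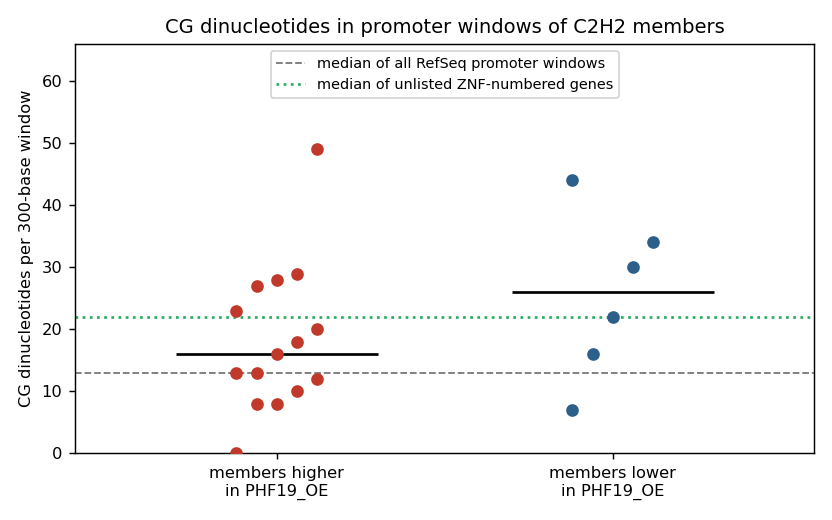
Number of CG dinucleotides in the RefSeq start window of 300 bases for higher and lower C2H2 members, one point per gene, with solid bars at the medians. The bars stand at 16 in higher and 26 in lower members, the dotted line at 22 marks unlisted ZNF genes and the dashed line at 13 all windows.

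A family resemblance is visible in the start windows of 7 members. ZNF43 and ZNF257 rose, ZNF100 is their neighbour, ZNF680 lies on chromosome 7, and ZNF716, also on chromosome 7, was lower. Their windows are shown because they carry this likeness. They lie at chr19:21836133-21836432 (ZNF43, minus strand), chr19:22052234-22052533 (ZNF257, plus strand), chr19:21767530-21767829 (ZNF100, minus strand), chr7:64563022-64563321 (ZNF680, minus strand) and chr7:57449927-57450226 (ZNF716, plus strand), with CG again in capitals.
ZNF43: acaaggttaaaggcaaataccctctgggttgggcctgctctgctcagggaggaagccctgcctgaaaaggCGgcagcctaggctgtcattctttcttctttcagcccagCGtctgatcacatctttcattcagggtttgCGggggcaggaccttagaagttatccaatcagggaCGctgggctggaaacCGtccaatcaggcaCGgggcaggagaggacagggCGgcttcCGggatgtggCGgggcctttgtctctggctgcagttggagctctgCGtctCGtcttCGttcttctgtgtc
ZNF257: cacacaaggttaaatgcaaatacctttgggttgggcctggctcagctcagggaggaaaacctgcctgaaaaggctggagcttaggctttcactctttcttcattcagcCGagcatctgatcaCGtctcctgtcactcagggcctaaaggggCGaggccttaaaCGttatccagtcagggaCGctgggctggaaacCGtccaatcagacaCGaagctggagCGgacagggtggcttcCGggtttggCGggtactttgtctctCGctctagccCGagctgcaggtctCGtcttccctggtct
ZNF100: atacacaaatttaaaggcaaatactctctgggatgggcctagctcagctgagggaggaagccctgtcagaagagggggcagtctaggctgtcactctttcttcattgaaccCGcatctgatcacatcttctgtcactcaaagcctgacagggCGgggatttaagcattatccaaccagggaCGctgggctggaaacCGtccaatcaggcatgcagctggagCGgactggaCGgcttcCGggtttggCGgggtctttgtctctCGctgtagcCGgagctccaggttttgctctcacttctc
ZNF680: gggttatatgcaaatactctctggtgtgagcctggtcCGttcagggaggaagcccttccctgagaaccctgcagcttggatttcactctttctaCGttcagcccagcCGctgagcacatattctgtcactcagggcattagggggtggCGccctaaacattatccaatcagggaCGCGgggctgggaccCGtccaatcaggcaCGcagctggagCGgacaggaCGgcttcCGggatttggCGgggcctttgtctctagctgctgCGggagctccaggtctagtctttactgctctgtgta
ZNF716: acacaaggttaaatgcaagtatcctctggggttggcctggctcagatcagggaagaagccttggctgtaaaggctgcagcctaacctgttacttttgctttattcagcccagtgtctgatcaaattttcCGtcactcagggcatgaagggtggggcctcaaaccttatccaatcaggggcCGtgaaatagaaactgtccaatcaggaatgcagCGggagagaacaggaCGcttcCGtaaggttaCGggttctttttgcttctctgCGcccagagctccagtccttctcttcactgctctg

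Each pair of windows was aligned end to end, and identity is the share of identical bases over the longer window. ZNF43 and ZNF257 were 83.7% identical, ZNF100 and ZNF257 82.0%, ZNF43 and ZNF680 79.0%, and ZNF716 and ZNF257 76.3%. The 7 genes with this window were ZNF43, ZNF257, ZNF100, ZNF737, ZNF726, ZNF680 and ZNF716, and all 21 pairs among them were between 72.7% and 83.7%. The other 189 pairs of members had a median of 57.7% and a highest value of 64.3%. Against 483 windows of other ZNF genes and members outside its stretch ZNF43 had a median of 58.7% and a highest value of 83.0% (51.3% the lowest), the highest with unlisted ZNF92 on chromosome 7. Of the 7, 6 were higher in PHF19_OE cells, and ZNF716 was lower with no read in either PHF19_OE library. The window is not particular to the listed genes: ZNF43 had a median identity of 80.3% (61.3 to 83.0%) with 23 unlisted ZNF genes of the same stretch of chromosome 19, and of 79.7% (77.7 to 83.7%) with the 4 listed ones. Of 3 motifs searched on both strands, CCAAT was in 12 of 21 member windows (57.1%), in 46.1% of unlisted ZNF windows and in 35.7% of all windows. Those 12 include all 7 like windows, which are not separate observations, so the larger share is not a trait of the members at large. GGGCGG, which contains CG, was in 14 (66.7%, against 63.3% and 44.5%), and GCCATNTT was in 3 (14.3%, against 10.8% and 6.81%). A match is a run of letters and not a bound site.

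Many of the chromosome 19 members lay near each other, and since 16 of the 19 were higher, neighbours of like direction are common from that share alone. Joining members whose starts lie within 1 Mb of each other put 16 of the 35 into 5 clusters, all on chromosome 19. The first, from 19785839 to 20565809 (0.780 Mb), held ZNF506, ZNF826P and ZNF737, all higher. The second, from 21722766 to 22091480 (0.369 Mb), held ZNF100, ZNF43 and ZNF257, all higher. The pair ZNF221 and ZNF234 (0.209 Mb) was higher, and the pair ZNF529 and ZNF793 (1.01 Mb) was split. The largest, from 51889224 to 53103436 (1.21 Mb), held ZNF649, ZNF613, ZNF614, ZNF480 and ZNF83, all higher, and ZNF160, which fell. These clusters hold many more ZNF genes in the annotation than were listed, 33 in the largest and 8 in the first. Of 281 annotated ZNF genes on chromosome 19, non-coding entries included, 19 (6.76%) were listed, against 10 of 364 (2.75%) on other chromosomes. Of the protein-coding ones on chromosome 19, 18 of 249 (7.23%) were listed, against 4.21% of all protein-coding genes of that chromosome. Over all chromosomes, 5.45% of protein-coding ZNF genes and 5.10% of all protein-coding genes were listed. With gaps of up to 2 Mb, the first 2 clusters and ZNF726 join into a run of 7 listed genes, all higher.

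**Figure D4:**
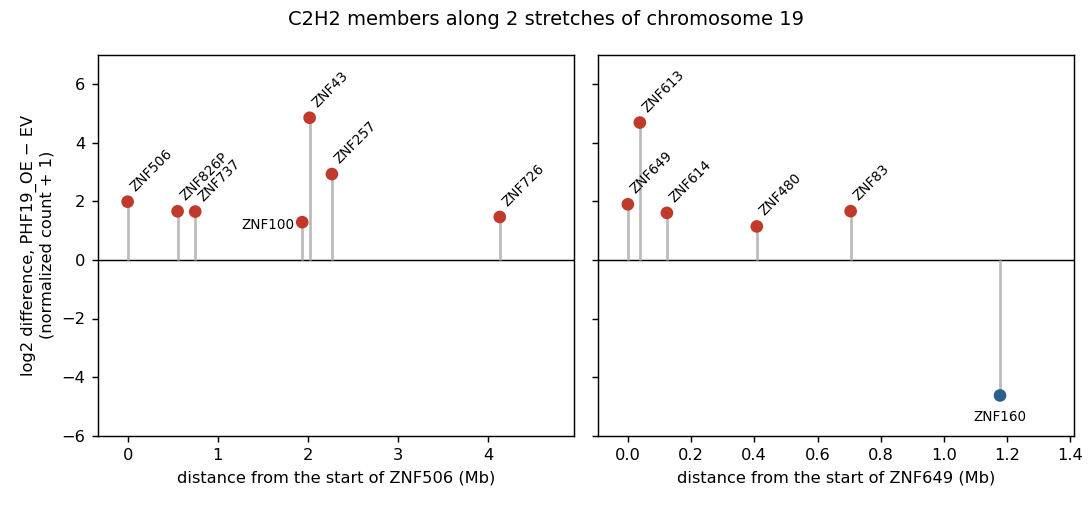
Difference of group means of log2(normalized count + 1), PHF19_OE minus EV, against the distance in Mb from the first gene, for the run of 7 members that starts with ZNF506 (left) and the cluster of 6 that starts with ZNF649 (right). All 7 genes on the left lie above 0, and on the right 5 lie above 0 and ZNF160 below.

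In the first cluster the values were of like size. ZNF826P, the pseudogene, had 440 and 283 normalized counts in PHF19_OE cells and 99.0 and 125 in EV cells (3.23-fold higher). ZNF737 had 243 and 213 in PHF19_OE cells and 84.0 and 61.6 in EV cells (3.13-fold). Neither passed the threshold, with adjusted p of 0.0623 for ZNF826P and 0.127 for ZNF737 in the authors' deposited table. Further along, ZNF100 had 440 and 484 normalized counts in PHF19_OE cells and 169 and 211 in EV cells (2.43-fold, adjusted p 0.177 in the authors' deposited table). ZNF726 had 242 and 156 in PHF19_OE cells and 49.1 and 98.8 in EV cells (2.69-fold, and 4.04-fold without EV replicate 2). In both genes the groups did not overlap.

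In the largest cluster ZNF613 rose and ZNF160 fell, as given above, and the other 4 members were higher by smaller ratios. ZNF649 had 56.5 and 63.4 normalized counts in PHF19_OE cells and 12.7 and 18.6 in EV cells (3.84-fold higher). ZNF614 had 329 and 443 in PHF19_OE cells and 85.5 and 183 in EV cells (2.88-fold, and 4.51-fold without EV replicate 2), and ZNF480 had 314 and 365 in PHF19_OE cells and 133 and 176 in EV cells (2.20-fold). ZNF83 had 232 and 246 normalized counts in PHF19_OE cells and 67.3 and 83.1 in EV cells (3.17-fold). In the authors' deposited table their adjusted p ranged from 0.0910 (ZNF83) to 0.537 (ZNF649), so none of the 4 passed. ZNF649 overlaps ZNF577 on the same strand and ZNF83 overlaps a listed sense intronic transcript, AC022150.4. Whether counting used strand is not stated, so reads of overlapping genes cannot be told apart. Of the 35 members, 25 overlap an annotated gene, 21 of them one on the opposite strand and 3 a protein-coding one.

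The remaining clustered genes were at low counts or split. ZNF234 had 24.0 and 13.3 normalized counts in PHF19_OE cells and no read in EV cells, which is at least 14.2-fold higher, and ZNF221 had 15.6 and 7.16 in PHF19_OE cells and no read in EV cells, at least 8.68-fold. ZNF529 had 341 and 388 in PHF19_OE cells and 112 and 142 in EV cells (2.88-fold higher, adjusted p 0.0830 in the authors' deposited table), and it overlaps ZNF382 on the opposite strand. ZNF793 had 1.20 and 0 normalized counts in PHF19_OE cells and 22.2 and 14.7 in EV cells. Its single PHF19_OE read gives a ratio of 34.0 in favour of EV with a 95% interval of 5.79 to 1376. On chromosome 19 outside the clusters, ZNF556 had 180 and 265 in PHF19_OE cells against 41.2 and 132 in EV cells (2.57-fold higher by the means, 5.41-fold and 1.69-fold against the single EV libraries). ZNF558, a KRAB gene that represses the mitophagy gene SPATA18, had 237 and 157 normalized counts in PHF19_OE cells against 726 and 315 in EV cells (2.65-fold lower by the means, 3.69-fold and 1.6-fold against the single EV libraries). ZNF793, ZNF558 and ZNF160 were thus the 3 chromosome 19 members that were not higher.

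Near-identical copies could in principle exchange reads within these clusters. Of the annotated transcript sequence of each member, the share of 50-base words found in another gene was at most 8.03% (ZNF737), followed by ZNF726 at 6.99%, ZNF716 at 5.80% and ZNF506 at 5.58%. Across the members the median was 1.46%, and 11 shared no word. How reads that map to more than 1 place were counted is not stated, so the values of ZNF737, ZNF726 and ZNF506 carry that uncertainty.

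The 3 members that are known lymphoid or progenitor regulators, BCL11A, IKZF3 and ZNF521, were higher, and BCL11A alone passed the threshold. Of 37 names on a list of lymphoid zinc finger regulators, 5 were in the table, 4 higher and 1 lower. IKZF3 (Aiolos), the lymphoid factor that cereblon-directed drugs such as lenalidomide degrade, had 13682 and 16106 normalized counts in PHF19_OE cells and 9452 and 8786 in EV cells, 1.63-fold higher with an adjusted p of 0.696 in the authors' deposited table. It was by FPKM the most abundant member, with 51.8 ± 5.74 FPKM in PHF19_OE cells and 32.1 ± 2.36 in EV cells (SD, n = 2 each). ZNF521, a factor of blood progenitors that antagonises EBF1, had 1048 and 1099 normalized counts in PHF19_OE cells and 615 and 628 in EV cells. That was 1.73-fold higher with an adjusted p of 0.643 in the authors' deposited table, and its replicates were close in both groups. Neither ZBTB46 (higher) nor ZFP36L1 (lower), the others on that list, is a member by the family rule, and ZFP36L1 encodes an RNA-binding protein with CCCH rather than C2H2 fingers. None of 34 named partners of KRAB proteins, TRIM28 and SETDB1 among them, was in the table.

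PRDM15, a PRDM family gene, had 2772 and 2989 normalized counts in PHF19_OE cells and 447 and 1689 in EV cells. It was 2.70-fold higher by the means, 6.45-fold against EV replicate 1 and 1.71-fold against EV replicate 2, with an adjusted p of 0.380 in the authors' deposited table. ZNF680 on chromosome 7 had 120 and 134 in PHF19_OE cells and 23.8 and 39.1 in EV cells (4.04-fold higher), and ZNF718 on chromosome 4 had 148 and 155 in PHF19_OE cells and 24.6 and 56.7 in EV cells (3.72-fold, and 6.16-fold without EV replicate 2). ZNF704 had 203 and 288 in PHF19_OE cells and 29.3 and 144 in EV cells (2.84-fold by the means, 8.37-fold and 1.71-fold against the single EV libraries). These higher genes off chromosome 19 thus differed in how far the 2 EV libraries agreed.

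The lower members were mostly off chromosome 19 and included developmental and cancer genes. ZNF703, a luminal breast cancer oncogene, had 454 and 328 normalized counts in PHF19_OE cells, against 1769 and 549 in EV cells. Its 2.96-fold lower mean rested on EV replicate 1, with ratios of 4.52 and 1.40 against the single EV libraries. ZNF827, which recruits the NuRD complex to telomeres, had 219 and 120 in PHF19_OE cells and 522 and 373 in EV cells (2.64-fold lower). PLAG1, the oncogene of salivary pleomorphic adenoma, had 374 and 414 in PHF19_OE cells and 840 and 671 in EV cells (1.92-fold lower), and ZNF462 had 99.7 and 86.0 in PHF19_OE cells and 173 and 269 in EV cells (2.38-fold lower). ZKSCAN2, which encodes SCAN and KRAB domains, had 139 and 172 normalized counts in PHF19_OE cells and 412 and 236 in EV cells (2.08-fold lower). ZNF697 had 10.8 and 28.7 in PHF19_OE cells and 99.8 and 51.8 in EV cells (3.84-fold lower). None of these 6 passed the adjusted threshold, and the size of the lower values depends on the scaling. TMM and DESeq2 factors were computed from the listed genes, all of them selected at p under 0.05. The median of all listed genes was -1.17 with the authors' factors, -0.38 with TMM and -0.24 with DESeq2 factors. With library totals it was -1.19. The values below carry that shift, so they cannot show whether a fall is smaller than the authors' factors give. In log2(normalized count + 1), ZKSCAN2 differed by -1.0 with the authors' factors, by -0.21 with TMM factors and by -0.07 with DESeq2 size factors from the listed genes. With DESeq2 size factors the difference was -0.28 for ZNF462 (-1.21 with the authors' factors), -0.37 for ZNF558 (-1.31), -0.41 for ZNF703 (-1.35), -0.50 for ZNF827 (-1.44) and -1.05 for ZNF697 (-1.96).

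The last 3 lower genes gave no firm size. ZNF716 had no read in PHF19_OE cells and 17.4 and 5.87 normalized counts in EV cells, which is at least 7.02-fold lower. ZNF488, which promotes oligodendrocyte differentiation, had no read in PHF19_OE cells and 34.1 and 0 in EV cells, so the groups overlap at 0. GLIS1, a GLI-similar factor that promotes reprogramming, had 48.1 and 14.3 normalized counts in PHF19_OE cells and 322 and 11.7 in EV cells. Its lower mean (5.36-fold) came from EV replicate 1 alone, and against EV replicate 2 the PHF19_OE mean was higher.

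The EV libraries differed from each other in most members, and the direction of that difference went with the direction of the gene. In 17 of the 23 higher members EV replicate 2 exceeded EV replicate 1 (4 the other way, 2 with no read in either), and in 11 of the 12 lower members EV replicate 1 exceeded EV replicate 2. Over all 1232 listed genes (784 lower, 448 higher), EV replicate 1 exceeded EV replicate 2 in 758 and the reverse held in 397. Unequal EV libraries were thus not particular to the members. EV replicate 2 lay between EV replicate 1 and both PHF19_OE libraries in 26 of 35 members (74.3%) and in 65.9% of all listed genes. From EV replicate 1 the members' median difference was 1.69 (-1.58 for all listed genes), and from EV replicate 2 it was 0.97 (-0.48 for all listed genes). More than 2-fold from both EV libraries in the same direction were 21 of 35 members, at a background of 59.5% of listed genes. By share of reads EV replicate 1 stood apart. Listed genes took 7.07% of its reads, against 4.03% in EV replicate 2 and 4.38% and 3.97% in the PHF19_OE libraries. Its DESeq2 size factor from the listed genes was 2.46, against 1.26 by the authors. For EV replicate 2 these were 1.01 and 1.02, and for the PHF19_OE libraries 0.640 and 0.832, and 0.662 and 0.977. What sets the EV libraries apart from each other was not tested. PHF19 had 4506 normalized counts in EV replicate 2 and 1842 in EV replicate 1, the same order as in the higher members. This order is stated here as a measurement only.

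**Figure D5:**
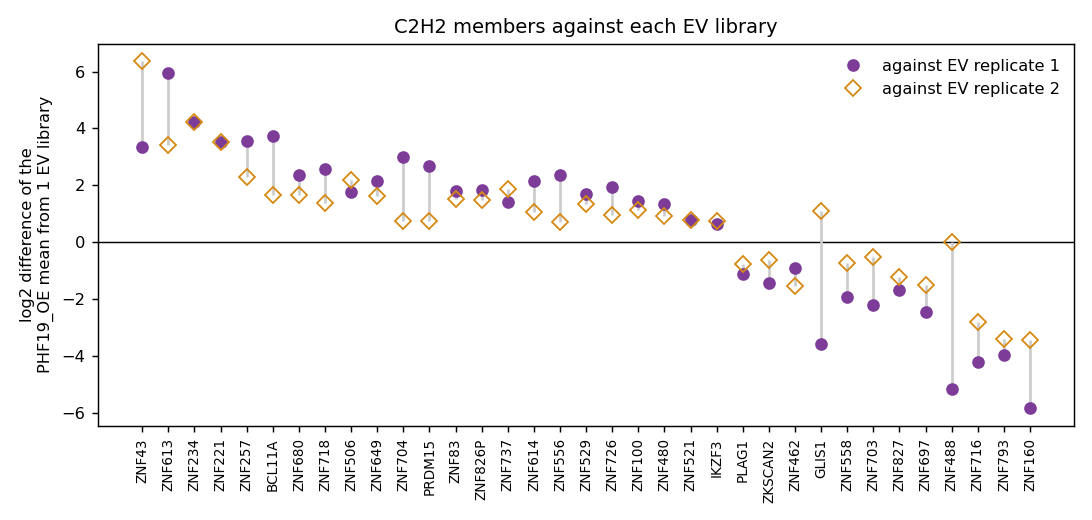
Difference of the PHF19_OE mean of log2(normalized count + 1) from EV replicate 1 (filled circles) and from EV replicate 2 (open diamonds) for each of the 35 members, ordered by their mean difference. The median is 1.69 for EV replicate 1 and 0.97 for EV replicate 2. GLIS1 lies on opposite sides of 0.

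Levels of different members can be compared per length. In FPKM, 16 of 35 members stayed under 1 in both group means, 15 reached 1 to 4 in the higher mean, and 4 reached at least 4. Those 4 were IKZF3, PRDM15 with 7.71 ± 0.378 FPKM in PHF19_OE cells and 2.87 ± 2.32 in EV cells, ZNF521 with 5.88 and 6.13 FPKM in the PHF19_OE libraries and 3.54 and 3.50 in the EV libraries, and ZNF703 with 4.07 ± 0.941 FPKM in PHF19_OE cells and 12.3 ± 9.35 in EV cells (SD, n = 2 each). Members held 1.86% and 2.26% of the reads of listed genes in PHF19_OE libraries and 0.839% and 1.32% in EV libraries. The base of these shares differed, since listed genes took 4.38% and 3.97% of all reads in PHF19_OE libraries and 7.07% and 4.03% in EV libraries. IKZF3 alone had 11386 of 19441 and 15739 of 25302 member reads in PHF19_OE libraries. In EV libraries it had 11933 of 20891 and 8985 of 15633. Among the marker lists, CD38 was the 1 of 10 plasma cell names in the table and was lower, with 901 and 660 normalized counts in PHF19_OE cells and 3228 and 2138 in EV cells. It passed the adjusted threshold, as did ITGAM, HBB and CDH1 among markers of other cell types. Of 9 T and NK cell markers 2 were listed, with summed normalized counts of 2.40 and 5.12 in PHF19_OE cells and 85.5 and 40.1 in EV cells. ITGAM, 1 of 7 myeloid markers, had 0 and 0 in PHF19_OE cells and 94.3 and 15.6 in EV cells, and HBB, 1 of 5 erythroid markers, had 233 and 180 in PHF19_OE cells and 58.6 and 24.4 in EV cells. CDH1, 1 of 11 fibroblast, endothelial and epithelial markers, had 1.20 and 0 in PHF19_OE cells and 99.0 and 9.78 in EV cells. Their part in the results above was not tested.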

How the data were processed

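Libraries were made from AMO1 RNA with a SMARTER mRNA-Seq kit, per the labels' protocols, and hg38 is the build in the submitters' processing notes. Aligner, counter, strand use and the authors' test are not named there. The deposited table holds, per the file headers, read counts, normalized values (a signal scale), FPKM, log2 fold changes of PHF19_OE over EV, p-values (up to 0.0499) and adjusted p-values. The authors' normalized values equal counts divided by 0.832 and 0.977 (PHF19_OE) and 1.26 and 1.02 (EV). Adjusting these p-values by Benjamini-Hochberg with 16881 genes gave back 1208 adjusted values (relative tolerance 1e-06), and the other 24 are 1.

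Calls are the authors' adjusted p under 0.05. The deposited counts of listed genes were also fitted with edgeR 4.0.16 (quasi-likelihood, filterByExpr) and DESeq2 1.42.0 in R 4.3.3, both tested on simulated data. With 2 libraries against 2 the smallest exact permutation p is 0.333, so none was run. The pseudocount of 1 in log2 differences understates changes of low genes. Where a group had no read, 3 counts in that group served as the floor, and the 95% interval of ZNF793 is exact.

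Members and lists were chosen with earlier results of these data known. The rule for named genes took members past the threshold, the 6 largest rises and falls with at least 50 normalized counts and no overlap, members of clusters of at least 3 on chromosome 19, and members on the lymphoid list, 22 in all. The other 13 are named because every member is accounted for. Coordinates and gene counts are from GENCODE 29, start windows from RefSeq. Protein sequences were not used here.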

Additional observations from a re-analysis of the deposited data

How the results depend on the processing

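The counts of higher members (23, with 16 on chromosome 19 and 7 elsewhere) were the same under TMM factors, DESeq2 size factors and library totals, and without each library except EV replicate 1, where 24 were higher (GLIS1 added). Leaving out a library could change the direction only of GLIS1 and ZNF488, since the groups of all other members did not overlap. TMM factors from the listed genes shifted the median of all listed genes by 0.80 and DESeq2's size factors by 0.94, and the members' median became 2.32 and 2.46, with a distance from the listed median of 2.70 under the authors' factors and 2.69 under both others. Leaving out 1 library put the members' median between 0.97 and 1.69, and the distance at 1.44 without EV replicate 1 and 3.28 without EV replicate 2. Fixed bins of 1 Mb put 9 members into clusters. The 6 calls became 0 with edgeR adjusted over the 16881 genes, 1 with edgeR over the listed genes (ZNF234), 3 with TMM factors, 0 without the filter on low counts (14 at an unadjusted p under 0.05) and 0 with DESeq2 over the 16881 genes. DESeq2 over the listed genes called 7, the same 6 and ZNF234. Leaving out 1 library in edgeR, with the lone sample assumed to vary like the other group, called 0 to 32 members. The count was 0 without PHF19_OE replicate 1 (2.98% of fitted genes) and 0 without PHF19_OE replicate 2 (2.36%). It was 19 without EV replicate 1 (54% of fitted genes) and 32 without EV replicate 2 (89.3%). No member was called where the 2 EV libraries supplied the spread, and many were where the 2 PHF19_OE libraries did. These counts thus turn mainly on which group supplies the spread, and they are not evidence for any member. With the replicate number as a block edgeR called 5 members over the listed genes (ZNF43, BCL11A, ZNF613, ZNF257 and PRDM15, the last with an adjusted p of 0.0352) and 0 over the 16881, while ZNF506 was at 0.0722. The labels do not say that numbers pair libraries, and deviations of same-numbered libraries correlated at 0.208 across 1232 genes. Of 132 alternative values of the 22 named members all kept their sign and 36 moved by more than the spread between replicates, with the lower members moving towards 0 under TMM and DESeq2 factors (ZKSCAN2 to -0.21 and -0.07). The cause of these changes was not tested. Low counts limit ZNF43, ZNF613, ZNF160, ZNF221, ZNF234, ZNF488, ZNF716 and ZNF793, and 2 libraries a group limit every error given.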
